A study of Mus musculus with 3 samples.

Results

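Glucocorticoids are adrenal steroid hormones that reach blood leukocytes and bind the glucocorticoid receptor, a ligand-dependent transcription factor encoded by Nr3c1. The unbound receptor rests in the cytosol in a complex with heat shock proteins. After binding it enters the nucleus and, as a homodimer on palindromic response elements or through other factors, raises or lowers the transcription of many genes, among them genes that restrain inflammation, arrest growth signalling and feed back on the receptor. In blood the hormone is known to shift the numbers of circulating neutrophils and lymphocytes and to act on immune cells of every lineage.

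The genes described here are Nr3c1 and 9 genes that glucocorticoids are known to induce in at least some tissues, namely Fkbp5, Tsc22d3, Ddit4, Klf9, Sgk1, Txnip, Mt1, Mt2 and Sesn1. They were chosen by symbol, and all 10 were found among the 31053 genes of the deposited matrix. Most of the induced genes also answer other signals, so none of them is a reading of the hormone alone. Beside them 3 gene lists were read, 20 genes of the receptor's machinery, 23 other genes that glucocorticoids induce and 19 relatives or partners of the members.

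The study measured single-cell RNA of leukocytes from the blood of C57/BL6J mice in 3 groups, a control at 0 h (Con) and sleep deprivation for 24 h (SD24h) and 48 h (SD48h). Each group was a single library made from the pooled cells of 3 mice, prepared after lysis of red cells with a 3' kit that tags each molecule with a unique molecular identifier (UMI). The sources used here give no age, sex or time of day. All groups share the strain, the tissue and the anaesthesia before sampling, and pentobarbital had been given to the controls as well.

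The deposited matrix pools the 3 libraries and marks each cell's library by the ending of its barcode, and no label says which ending belongs to which group. The libraries are therefore called 1, 2 and 3 by that ending, no group was compared with another, and no order in time is implied. With 1 library per group there is also no replicate: the intervals below are exact 95% intervals that cover counting error only, and differences between mice cannot be told apart from differences between libraries. UMIs were summed over the cells of a class in a library and divided by all UMIs of that class and library, per 1000000 (CPM). In such sums a change in the RNA of each cell and a change in the make-up of the class cannot be told apart.

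Libraries 1, 2 and 3 held 8815, 6648 and 6741 barcodes, 40807434, 30114546 and 36523283 UMIs and a median of 3987, 3721.5 and 4405 UMIs per barcode. They shared 17 barcodes (1 and 2), 23 (1 and 3) and 21 (2 and 3). After filtering, 6695, 5619 and 5438 cells were grouped by clustering that used neither the members nor the 3 lists. Classes were named from marker genes. Neutrophil-like cells numbered 541, 3138 and 1968 in libraries 1, 2 and 3, monocyte-like cells 415, 400 and 478, B-like cells 3992, 1402 and 1951, T-like cells 1211, 517 and 790, and NK-like cells 291, 80 and 154. Library 1 stood apart from the others. It held few neutrophil-like cells, and 524 of its 541 lay in 1 cluster (cluster 10, led by Cd101 and Jaml) that held few cells of the other libraries. Cluster 10 met 9 of the 18 neutrophil markers, while clusters 1, 5 and 6 met 17, 17 and 13. RNA of platelet marker genes was higher in library 1 in each class. The 9 platelet markers summed to 5467, 2453 and 2915 CPM for B-like cells and to 12816, 3880 and 3360 CPM for neutrophil-like cells. RNA of the neutrophil genes S100a8 and S100a9 was lowest in library 1 outside the neutrophils, at 62.2, 1040 and 837 CPM in B-like cells. RNA of B and T cell markers was highest in library 1 in monocyte- and neutrophil-like cells, where the 15 B cell markers summed in monocyte-like cells to 1061, 301 and 260.5 CPM over libraries 1, 2 and 3 and for neutrophil-like cells to 1119, 578 and 460.1 CPM. The T cell markers summed to 137, 22.7 and 40.6 CPM for monocyte-like cells. Their part in the differences between libraries below was not tested.

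Nr3c1 RNA was found in each of the 5 classes and was highest in neutrophil-like cells. It stood at 184, 164 and 113 CPM in the neutrophil-like cells of libraries 1, 2 and 3. NK-like cells held 118, 71.3 and 75.9 CPM, monocyte-like cells 109, 55.9 and 67.0 CPM, B-like cells 79.8, 79.4 and 79.9 CPM and T-like cells 53.4, 48.3 and 41.3 CPM. T-like cells were thus the lowest class in each library, although in library 2 they did not stand apart from monocyte-like cells (monocyte over T 1.16, interval 0.94 to 1.42). The neutrophil-like class exceeded the next class 1.57 times in library 1 (1.28 to 1.92), 2.07 times in library 2 (1.86 to 2.30) and 1.41 times in library 3 (1.28 to 1.56). NK-, monocyte- and B-like cells held the middle ranks in different orders. B-like and NK-like cells did not stand apart in libraries 2 and 3, nor did NK-like and monocyte-like cells in any of the 3.

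A leading class was called where the same class was highest in all 3 libraries and each interval against the next class lay above 1. Of the 10 members 9 had the 20 UMIs over the 5 classes that the rule asks for, and 5 of the 9 had a called leading class, against 20.8% of the 13209 genes measured in the same way. Nr3c1, Sgk1 and Txnip led in neutrophil-like cells (5.49% of all measured genes), Mt1 in monocyte-like cells (5.82%), Sesn1 in B-like cells (3.52%) and none in T-like (2.54%) or NK-like cells (3.41%). Fkbp5, Tsc22d3, Ddit4 and Klf9 had none, since their order changed with the library or the upper classes did not stand apart. With a stricter cell filter (500 genes or more, mitochondrial share of 5% or less), which left 3.51% of the B-like UMIs of library 1, Mt1 and Sesn1 lost the call and 3 of the 9 had one. Mt1 lost it also with mitochondrial shares up to 20% allowed. With TMM scaling over the classes, which corrects for the make-up of the RNA, Sesn1 lost its call (lowest ratio 1.01). Tsc22d3 then gained one, in neutrophil-like cells (1.46).

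**Figure D1:**
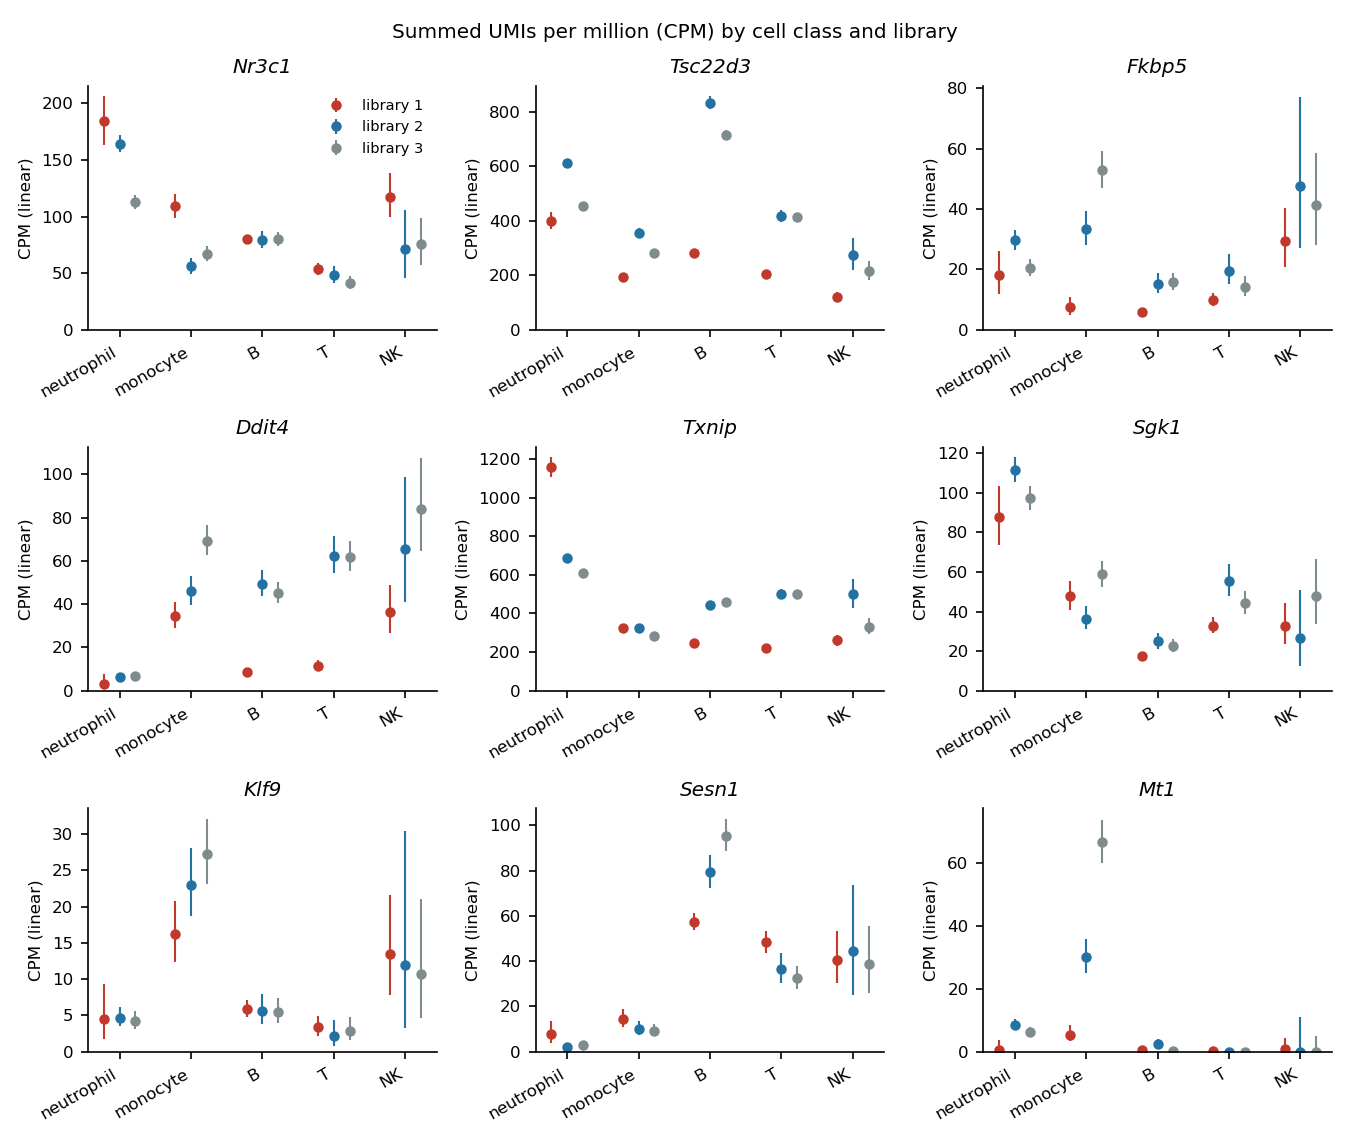
Level of 9 of the 10 genes in CPM (linear axes, each starting at 0) in the 5 classes, with 1 point per library and bars for exact 95% Poisson intervals. Nr3c1 and Txnip are highest in neutrophil-like cells and Mt1 in monocyte-like cells, while the B-like points of Tsc22d3 and Ddit4 for library 1, at 283 and 8.63 CPM, lie below those of libraries 2 and 3.

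Over libraries, a gene was called within a class where the highest library was at least 1.5 times the lowest and the interval of that ratio lay above 1. Nr3c1 was called in 3 classes, each with library 1 highest: 1.63 times library 3 in neutrophil-like cells (1.43 to 1.86), 1.95 times library 2 in monocyte-like cells (1.66 to 2.30) and 1.65 times library 2 in NK-like cells (1.07 to 2.65). In B-like cells its highest level was 1.01 times its lowest (0.89 to 1.14). In T-like cells the ratio was 1.29 (1.09 to 1.53), below the size the rule asks for. Library 1 was the lowest for Nr3c1 in none of the 5 classes. The neutrophil-like difference rests on the scaling: TMM scaling gave 136, 178 and 141 per 1000000 scaled UMIs, so that library 1 was no longer the highest. Without cluster 5, the neutrophils with immature granule genes, the log2 ratio was 0.39, and with S100a8 and S100a9 left out of the total it was 0.36, below the size the rule asks for, against 0.71. In monocyte-like cells cluster 12 is led by Cd300e and Ace, as non-classical monocytes are. Cluster 8 is led by Fn1 and Vcan, as classical monocytes are. Nr3c1 was higher in cluster 12. Over cluster 8 the ratio was 1.28 (1.04 to 1.58), 2.35 (1.67 to 3.24) and 2.21 (1.79 to 2.73) in libraries 1, 2 and 3. With finer clustering (Leiden resolution 2), a monocyte-like cluster led by Vcan and Saa3 held 14, 304 and 248 cells of libraries 1, 2 and 3. Another, led by Cd209a and Lpl, held 224, 32 and 29 cells. Cluster 8 itself held 238, 336 and 277 cells, so its make-up differed in library 1. The part of this in the Nr3c1 levels of cluster 8 was not tested. Nor was its part in the comparisons of cluster 12 with cluster 8, here and below.

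Of the receptor's machinery, 18 of 20 genes were measured over the classes. Of these 18, 5 had a called leading class, a count near the 20.8% of all measured genes. Hsp90aa1, the inducible form of the chaperone that holds the receptor ready for hormone, was highest in NK-like cells at 399, 374 and 369 CPM. Bag1, a cochaperone, was also highest there at 177, 241 and 208 CPM. Hsd11b1, the enzyme that regenerates active hormone from its inert 11-keto form inside cells, had NK-like levels of 236, 193 and 229 CPM, followed by T-like levels of 70.8, 57.3 and 64.0 CPM, 3.33, 3.37 and 3.58 times apart. Hspa8, a chaperone, led in monocyte-like cells. Nr3c2, the mineralocorticoid receptor, and Hsd11b2, which inactivates the hormone, had too few UMIs to be measured, Hsd11b2 with 0 UMIs in each class and library. In B-like and in T-like cells 0 of the 18 machinery genes were called over libraries, against 10.5% and 13.2% of all measured genes, by this rule of size and counting interval and with no test. In neutrophil-like cells 16 of 18 were called, 14 with library 1 highest, beside 61.7% of all genes called and 49.6% called with library 1 highest. In monocyte-like cells 8 of 18 were called (27.5% of all genes), 5 with library 1 highest (15.3%). In NK-like cells 1 of 18 was called (12.7%).

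Fkbp5 encodes a cochaperone that lowers the receptor's affinity for hormone, and it is a target that the receptor induces in many tissues. It stood at 18.0, 29.7 and 20.5 CPM in the neutrophil-like cells of libraries 1, 2 and 3. In monocyte-like cells it had 7.55, 33.4 and 52.9 CPM, in B-like cells 5.90, 15.1 and 15.7 CPM, in T-like cells 9.79, 19.6 and 14.1 CPM and in NK-like cells 29.4, 47.5 and 41.3 CPM. Library 1 was the lowest in all 5 classes and was called so in all but the NK-like cells, where the interval of the ratio ran from 0.84 to 2.98. The monocyte-like difference was 4.42 times for library 2 over library 1 (2.93 to 6.89) and 7.004 times for library 3 over library 1 (4.74 to 10.7). Fkbp5 was higher in the non-classical than in the classical cluster, at 11.98, 61.8 and 72.1 CPM against 5.72, 30.4 and 45.4 CPM, and library 1 was the lowest in both. In library 1 the interval of the ratio between the clusters ran from 0.92 to 4.72. The classical cluster differed in make-up in library 1, as given above, and the part of this was not tested. Among classes NK-like cells were highest in libraries 1 and 2 and monocyte-like cells in library 3, without standing apart from the next class in any library.

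Tsc22d3 encodes GILZ, a leucine zipper protein that binds and restrains NF-kappaB and AP-1 and carries part of the anti-inflammatory action of glucocorticoids. In B-like cells it stood at 283, 834 and 714 CPM in libraries 1, 2 and 3. In neutrophil-like cells it had 400, 613 and 453 CPM, in T-like cells 204, 417 and 412 CPM, in monocyte-like cells 192, 355 and 283 CPM and in NK-like cells 118, 273 and 216 CPM. Library 1 was the lowest and library 2 the highest in each of the 5 classes, and all 5 differences were called. Tsc22d3 alone among the members was called in all 5.

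The difference for Tsc22d3 was larger in B-like cells than in the others as a plain ratio: library 2 exceeded library 1 by 2.95 times in B-like cells (2.83 to 3.07), 2.31 times in NK-like cells (1.76 to 3.02), 2.04 times in T-like cells (1.90 to 2.20), 1.85 times in monocyte-like cells (1.69 to 2.02) and 1.53 times in neutrophil-like cells (1.41 to 1.67). In neutrophil-like cells TMM scaling gave 2.24 times, and under the stricter filter the difference lay below the size the rule asks for (log2 ratio 0.58). With TMM scaling over the classes, neutrophil-like cells led for Tsc22d3 in each library. By CPM the order of classes changed with the library. Neutrophil-like cells led B-like cells by 1.41 times in library 1 (1.30 to 1.54), whereas B-like cells led neutrophil-like cells by 1.36 times in library 2 (1.31 to 1.41) and by 1.58 times in library 3 (1.52 to 1.64). The difference was spread over many cells: after each cell was thinned to 1000 UMIs, 23.5%, 51.3% and 48.0% of B-like cells of libraries 1, 2 and 3 held a Tsc22d3 UMI, and 62.7%, 88.7% and 85.5% did before thinning. Red-cell-like cells, a group led by haemoglobin genes with a median of 5629 UMIs, gave 2.86%, 5.71% and 12.7% after thinning. The 5 B-like clusters each showed it, with 231 to 297 CPM in library 1, 724 to 1011 CPM in library 2 and 660 to 808 CPM in library 3. One of these clusters (cluster 2, which also carried the platelet genes Treml1 and Gp5 among its leading genes) held 1699 of the 3992 B-like cells of library 1, and without it the log2 ratio of library 2 to library 1 was 1.58, against 1.56 with it.

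RefSeq's GRCm38.p6 promoter windows, 250 bases before to 50 after a start site, were found for 9 of the 10 members (17 windows) and none for Nr3c1. They were searched on both strands for 1 exact form of the receptor's response element, the arms AGAACA and TGTTCT set 3 bases apart, and for a single arm, TGTTCT, which every full element also holds. A single arm is common, with 6233 of 32851 windows (19%) holding one. Tsc22d3 had 1 single arm in its 3 windows, in the stretch below, which is shown because this gene had the same high and low library in every class. The stretch is chrX:140600660-140600772, minus strand, and ends where the annotated gene begins. The arm is in capitals, 185 bases before the RefSeq start.
Tsc22d3: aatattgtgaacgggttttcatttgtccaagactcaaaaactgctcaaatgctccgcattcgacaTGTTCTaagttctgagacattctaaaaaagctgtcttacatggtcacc

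Klf9, a zinc finger transcription factor that glucocorticoids induce in many tissues, was highest in monocyte-like cells at 16.2, 22.98 and 27.3 CPM in libraries 1, 2 and 3. There it was called with library 1 lowest (1.69 times, 1.24 to 2.31). In neutrophil-like cells it had 4.51, 4.68 and 4.19 CPM, in B-like cells 5.90, 5.62 and 5.46 CPM and in T-like cells 3.39, 2.11 and 2.91 CPM. NK-like cells had 13.5, 11.9 and 10.7 CPM from 17, 4 and 8 UMIs. Outside the monocytes the libraries did not differ by the rule. Within the monocytes Klf9 was higher in the non-classical than in the classical cluster, at 32.3, 37.1 and 47.4 CPM against 9.53, 21.5 and 19.4 CPM, though the interval of the library 2 ratio ran from 0.92 to 3.01. For Klf9 too, the part of the differing make-up of the classical cluster in library 1 was not tested.

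Sgk1 encodes a kinase of the AKT family that promotes ion transport and cell survival, and it was first known as a serum and glucocorticoid induced gene. It was highest in neutrophil-like cells, at 87.6, 111 and 97.3 CPM. Monocyte-like cells had 47.7, 36.5 and 58.8 CPM and T-like cells 32.9, 55.5 and 44.2 CPM. NK-like cells had 32.6, 26.7 and 47.9 CPM and B-like cells 17.5, 24.9 and 22.6 CPM. Over libraries 2 classes were called, T-like cells with library 1 lowest (1.69 times, 1.39 to 2.05) and monocyte-like cells with library 2 lowest (1.61 times, 1.33 to 1.96). The monocyte call was lost with doublets kept (log2 ratio 0.56, against 0.69) and in the classical cluster alone (0.45). In neutrophil-like cells the ratio was 1.27 (1.07 to 1.53), and it was 1.86 with TMM scaling. The non-classical monocyte cluster had 82.0, 84.0 and 98.7 CPM and the classical cluster 33.6, 31.4 and 43.1 CPM, 2.44, 2.67 and 2.29 times apart. Here again the part of the differing make-up of the classical cluster in library 1 was not tested. The T-like cluster led by Cd8b1 and Cd8a exceeded the T-like cluster led by Ly6c1 and Cd4 by 1.59 times in library 1 (1.22 to 2.09), 1.42 times in library 2 (1.05 to 1.92) and 1.31 times in library 3 (0.996 to 1.74).

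Of the 6 windows found for Sgk1, 1 held the full response element, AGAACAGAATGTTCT, shown because no other window of the members held it. The searched form is rare in such windows, with 3 of 32851 (0.00913%) holding it. It is shown in capitals in chr10:21993640-21993889, plus strand, 189 bases before the start of 1 of the RefSeq transcripts of Sgk1 and between the ends of the annotated gene.
Sgk1: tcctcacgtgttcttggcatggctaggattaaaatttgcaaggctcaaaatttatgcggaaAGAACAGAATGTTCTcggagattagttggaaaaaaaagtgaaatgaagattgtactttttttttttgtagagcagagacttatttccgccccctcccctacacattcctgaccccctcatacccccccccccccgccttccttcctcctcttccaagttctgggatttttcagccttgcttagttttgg

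Ddit4 encodes REDD1, an inhibitor of the growth kinase complex mTORC1 that hypoxia, energy stress and glucocorticoids induce. It was low in neutrophil-like cells, at 3.22, 6.15 and 6.65 CPM in libraries 1, 2 and 3. In B-like cells it had 8.63, 49.5 and 45.3 CPM, in T-like cells 11.6, 62.5 and 62.0 CPM, in NK-like cells 36.5, 65.4 and 83.9 CPM and in monocyte-like cells 34.5, 46.0 and 69.4 CPM. Library 1 was the lowest in all 5 classes. The difference was called in 4, and not in neutrophil-like cells, whose library 1 held 5 UMIs and where TMM scaling gave a called ratio of 3.48. The part of monocyte RNA in the neutrophil-like levels was not tested. Library 2 exceeded library 1 by 5.74 times in B-like cells (4.70 to 7.04), 5.38 times in T-like cells (4.18 to 6.98) and 1.79 times in NK-like cells (1.03 to 3.04). For library 3 over library 1 the ratio was 2.30 in NK-like cells (1.55 to 3.44) and 2.01 in monocyte-like cells (1.64 to 2.47). Libraries 2 and 3 did not stand apart in B-like or T-like cells, at 0.91 (0.78 to 1.07) and 0.99 (0.83 to 1.19) for library 3 over library 2.

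Between the monocyte clusters Ddit4 differed in each library. It stood at 94.9, 242 and 175 CPM in the non-classical cluster, against 9.53, 25.2 and 27.8 CPM in the classical cluster. The ratios were 9.96 (6.38 to 16.1), 9.63 (7.19 to 12.9) and 6.31 (5.03 to 7.95) in libraries 1, 2 and 3. In both clusters library 1 was the lowest, and in the classical cluster the part of its differing make-up was not tested. The non-classical cluster made up 177 of 415, 64 of 400 and 201 of 478 monocyte-like cells, and over the whole class library 2 exceeded library 1 by 1.33 times (1.06 to 1.68). Before thinning 3.58%, 15.5% and 14.97% of B-like cells and 6.61%, 26.7% and 27.8% of T-like cells held a Ddit4 UMI, and after thinning to 1000 UMIs 0.862%, 4.94% and 3.94% of B-like cells did. Red-cell-like cells held 0, 0 and 3 UMIs of it.

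Sesn1 encodes sestrin 1, a stress protein that also lowers mTORC1 activity and that p53 and FoxO factors induce. It was highest in B-like cells, at 57.5, 79.4 and 95.5 CPM. T-like cells had 48.3, 36.5 and 32.4 CPM and NK-like cells 40.5, 44.6 and 38.6 CPM. Monocyte-like cells had 14.3, 9.95 and 9.15 CPM and neutrophil-like cells 7.73, 2.02 and 2.73 CPM. The order of the libraries differed between classes. In B-like cells library 1 was the lowest, 1.66 times below library 3 (1.51 to 1.83), while in neutrophil-like cells library 1 was the highest, 3.83 times above library 2 (1.73 to 8.08) on 12 UMIs, and in T-like cells library 1 was also the highest, 1.49 times above library 3 (1.24 to 1.80). The monocyte call (1.56 times, 1.04 to 2.35, library 1 highest) was lost under 4 alternatives, among them TMM scaling and doublets kept. RNA of B-like cells, scaled by the B cell gene Cd79a, would amount to up to 15.1% of the Sesn1 level in neutrophil-like cells and up to 10.7% in monocyte-like cells. Scaled by all 15 B cell markers it would amount to 40.2%, 109% and 77.6% of the Sesn1 level in the neutrophil-like cells of libraries 1, 2 and 3, and to 20.6%, 11.5% and 13.1% in monocyte-like cells. Its part in the Sesn1 levels there was not tested further. RNA of monocyte-like cells, scaled by Csf1r, would amount to up to 90.8% of Sesn1 and 257% of Ddit4 in neutrophil-like cells. Csf1r thus does not serve as a measure there. The 18 monocyte markers summed to 4576, 2701 and 3297 CPM in the neutrophil-like cells of libraries 1, 2 and 3. In monocyte-like cells they summed to 40934, 53795 and 35224 CPM. The part of monocyte RNA in neutrophil-like cells was not tested.

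Txnip encodes a protein that binds thioredoxin and limits glucose uptake, and its transcription follows glucose as well as glucocorticoids. It was highest in neutrophil-like cells at 1158, 688 and 608 CPM. In monocyte-like cells it had 323, 326 and 285 CPM, in B-like cells 247, 444 and 458 CPM, in T-like cells 221, 501 and 501 CPM and in NK-like cells 260, 499 and 332 CPM. In the 3 lymphocyte classes library 1 was the lowest, with the highest library 1.86 times above it in B-like cells (1.78 to 1.94), 2.27 times in T-like cells (2.12 to 2.43) and 1.92 times in NK-like cells (1.58 to 2.31). It was the highest in neutrophil-like cells, 1.90 times above library 3 (1.81 to 2.01), whereas TMM scaling left 857, 745 and 759 per 1000000 scaled UMIs there, with library 3 at 0.89 times library 1 (0.84 to 0.93). In libraries 2 and 3 the CD4-led T-like cluster stood at 565 and 625 CPM and the CD8-led cluster at 428 and 408 CPM, while in library 1 they stood at 218 and 223 CPM.

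The Txnip promoter is known to answer glucose through a carbohydrate response element, a pair of E-boxes set 5 bases apart, which the factors Mondo and Mlx bind. Searched as CACGNG and CACGNG set 5 bases apart on both strands, it was found in 16 of 32851 windows (0.0487%), that of Txnip among them. The form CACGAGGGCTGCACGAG lies 85 bases before the start and is in capitals in chr3:96557707-96557956, plus strand, which ends at the base before the annotated gene. It is shown because, by CPM, library 1 was the highest for Txnip in neutrophil-like cells and the lowest in the lymphocyte classes. With TMM scaling the neutrophil-like difference was below the size that a call asks for. Neither the full response element nor a single arm of the searched forms is in that window. The annotated antisense gene Gm15441 overlaps Txnip, and how reads on overlapping genes were assigned was not stated.
Txnip: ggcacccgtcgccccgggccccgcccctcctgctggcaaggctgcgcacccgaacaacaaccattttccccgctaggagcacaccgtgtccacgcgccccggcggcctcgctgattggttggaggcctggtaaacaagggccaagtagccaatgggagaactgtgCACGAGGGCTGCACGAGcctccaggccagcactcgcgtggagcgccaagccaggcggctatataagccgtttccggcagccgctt

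Mt1 and Mt2 encode metallothioneins, small cysteine-rich proteins that bind zinc and copper and that metals and glucocorticoids induce. Mt1 was highest in monocyte-like cells, at 5.40, 30.1 and 66.5 CPM in libraries 1, 2 and 3. Neutrophil-like cells had 0.644, 8.35 and 6.10 CPM. T-like cells held 2, 0 and 0 UMIs and NK-like cells 1, 0 and 0. B-like cells held 9, 13 and 2, of which a single cell held 92.3% in library 2. Mt1 was called in B-like cells with library 3 lowest, a call that rests largely on that cell. In monocyte-like cells library 3 exceeded library 1 by 12.3 times (7.86 to 20.4). The part of the differing make-up of the classical cluster in this was not tested. The neutrophil-like ratio of 12.96 rests on 1 UMI in library 1 and has an interval of 2.27 to 518. Between the monocyte clusters Mt1 took the opposite order to Ddit4, at 1.84, 12.4 and 18.2 CPM in the non-classical cluster, against 6.86, 32.0 and 85.4 CPM in the classical cluster. In library 1, with 2 and 18 UMIs, the clusters did not stand apart (0.89 to 33.1). Before thinning 4.10%, 18.8% and 32.6% of monocyte-like cells held an Mt1 UMI, beside 0.165%, 0% and 0% of T-like cells at a median depth of 6155, 6252 and 6274.5 UMIs. By 3 counts, the 0 of 517 T-like cells in library 2 allows a share of cells with an Mt1 UMI of up to 0.580%, and the 0 of 790 in library 3 up to 0.380%, which limits cells with a UMI and not cells that express the gene.

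Mt2 had 4 UMIs in all over the 5 classes, too few for any comparison. The Mt1 and Mt2 transcripts annotated in GENCODE M21 shared 0 sequences of 31 bases, so shared reads of that length cannot move counts from one to the other. The antisense gene Gm45774 overlaps Mt2. How reads over both genes were counted was not stated.

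**Figure D2:**
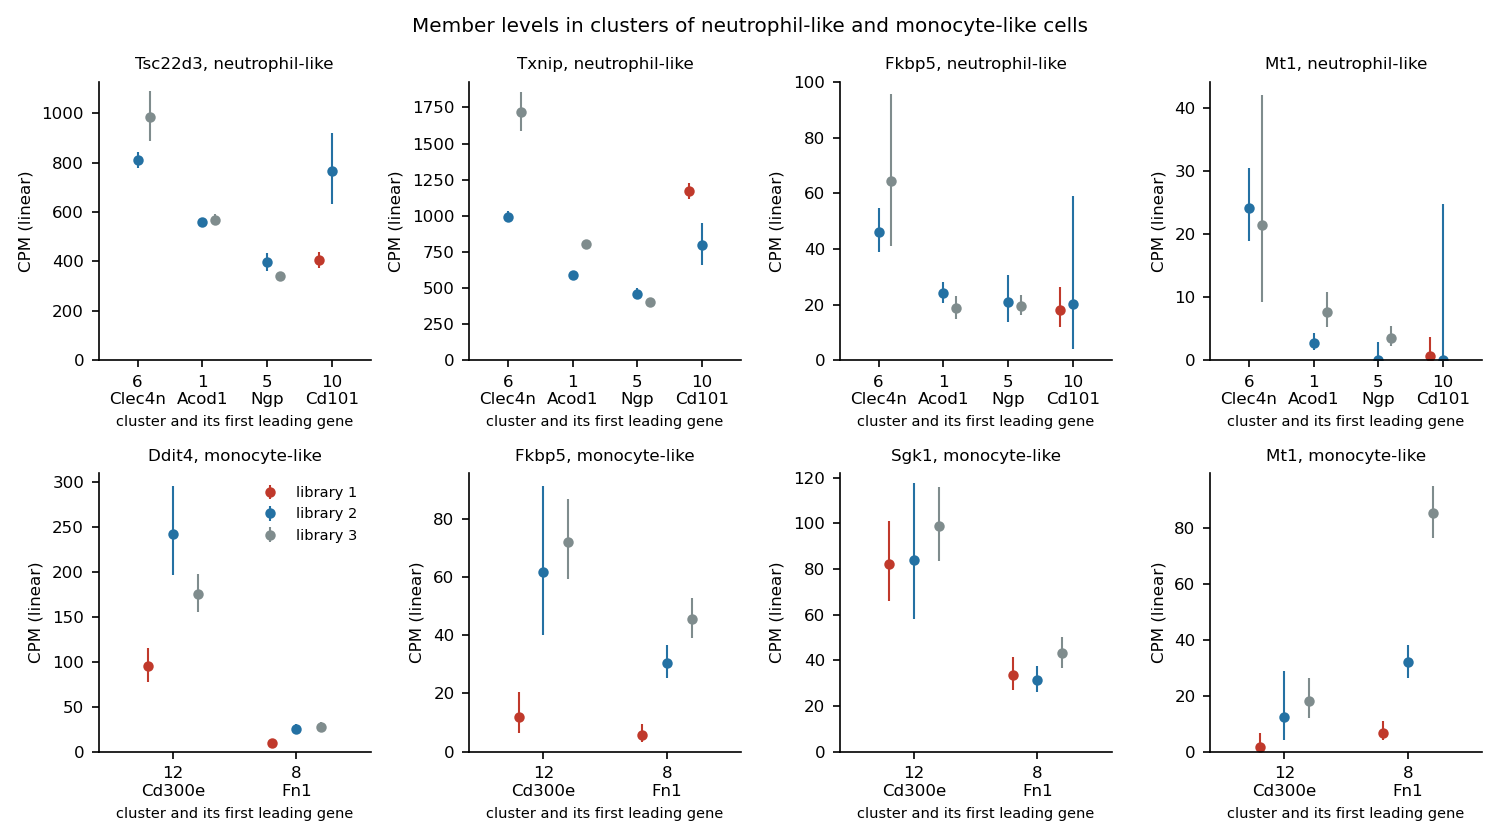
Level in CPM (linear axes from 0) of Tsc22d3, Txnip, Fkbp5 and Mt1 in the 4 neutrophil-like clusters (upper row) and of Ddit4, Fkbp5, Sgk1 and Mt1 in the 2 monocyte-like clusters (lower row), with 1 point per library of at least 50 cells and exact 95% Poisson bars. Cluster 6 is the highest of its class for the 4 upper genes in library 3, and Ddit4 and Mt1 take opposite orders in the monocyte clusters.

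Among neutrophil-like cells the members varied with the cluster. Cluster 6, led by Clec4n, Entpd3 and Csf1 with Il1b among its top genes, held 1101 cells of library 2 and 140 of library 3. Its Tsc22d3 stood at 812 and 985 CPM in libraries 2 and 3, its Txnip at 994 and 1718 CPM, its Fkbp5 at 46.2 and 64.2 CPM and its Mt1 at 24.2 and 21.4 CPM. Cluster 5, led by the granule gene Ngp as younger neutrophils are, held 329 and 943 cells. Its Tsc22d3 stood at 397 and 341 CPM, its Txnip at 458 and 405 CPM and its Fkbp5 at 20.9 and 19.5 CPM. Cluster 6 thus exceeded cluster 5 for Tsc22d3 by 2.05 times in library 2 (1.86 to 2.26) and 2.89 times in library 3 (2.58 to 3.23), and for Txnip by 2.17 times (1.98 to 2.38) and 4.24 times (3.88 to 4.62). Cluster 1, led by Acod1, lay between them with 559 and 569 CPM for Tsc22d3. Ddit4 and Klf9 did not differ between these clusters beyond their intervals.

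Library 1's neutrophil-like cells were nearly all in cluster 10, so the library and the cluster cannot be told apart there. Of cluster 10, the 51 cells of library 2 had Tsc22d3 at 768 CPM (633 to 922), above the 406 CPM (374 to 439) of the 524 cells of library 1. Nr3c1 stood at 80.8 CPM (41.8 to 141) in these cells of library 2 and at 184 CPM (163 to 207) in those of library 1.

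**Figure D3:**
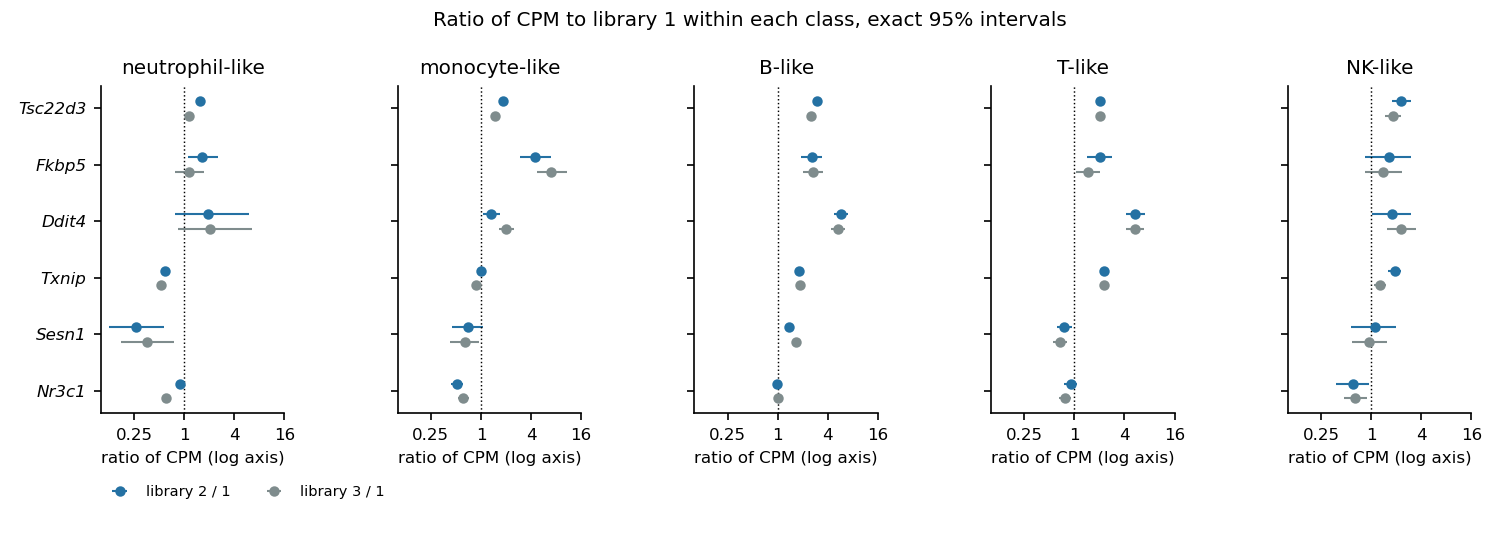
Ratio of CPM in library 2 and in library 3 to library 1 (log axis) for 6 members in each class, with exact 95% intervals; the dotted line marks a ratio of 1. Tsc22d3, Fkbp5 and Ddit4 lie to the right of the line in each class, Txnip lies right of it in the lymphocyte classes and left of it in neutrophil-like cells, and Nr3c1 lies on it in B-like cells.

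Counted by class, the rule called 6 of 9 measured members over libraries in neutrophil-like cells (61.7% of 9235 genes), 8 of 9 in monocyte-like cells (27.5% of 10398), 6 of 9 in B-like cells (10.5% of 11243), 5 of 8 in T-like cells (13.2% of 10248) and 4 of 8 in NK-like cells (12.7% of 7827). The neutrophil-like count is thus near its background, and it includes Mt1 on 1 UMI in library 1. The B-like count includes Mt1, where a single cell held most UMIs of library 2. Called with library 1 lowest were 3 of the 9 measured members in neutrophil-like cells, beside 6.3% of all measured genes. The same held for 5 of 9 in monocyte-like (8.11%), 5 of 9 in B-like (3.66%), 5 of 8 in T-like (4.64%) and 3 of 8 in NK-like cells (3.19%). Called with library 1 highest were 3 of 9 in neutrophil-like (49.6%), 2 of 9 in monocyte-like (15.3%) and 0 of 9 in B-like cells (5.2%). In T-like cells 0 of 8 (6.5%) and in NK-like cells 1 of 8 (6.13%) were so. The neutrophil-like split depends on the scaling. With TMM scaling Nr3c1 and Txnip lost their calls with library 1 highest, and Ddit4 and Sgk1 gained calls with library 1 lowest. The median deviation of the members from their 3-library mean, relative to that of all measured genes on the log2 scale, was -0.60 in library 1 in neutrophil-like cells, -0.47 in monocyte-like, -0.40 in B-like, -0.44 in T-like and -0.27 in NK-like cells. It was 0.29, 0.10, 0.25, 0.33 and 0.12 in library 2 and 0.23, 0.33, 0.33, 0.06 and 0.04 in library 3, in the same order of classes.

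Library 1 was the lowest in all 5 classes for 3 of the 8 members measured in each of them, Fkbp5, Tsc22d3 and Ddit4, beside 81 of 6938 genes (1.17%). The same held for library 2 in 0.36% and for library 3 in 2.95% of these genes, and for no member. Genes called with library 1 lowest in B-, T- and NK-like cells alike numbered 14 of 7583 (0.185%), and Ddit4, Tsc22d3 and Txnip were 3 of these. For libraries 2 and 3 such genes made up 0.264% and 0.185%, with no member among them. Of the other 11, Cxcr4 is on the list of other induced genes, and Lcn2, Ifitm6, Retnlg, S100a9, S100a8 and Wfdc17 are genes that neutrophils express in quantity. Neutrophil RNA in lymphocytes, scaled by S100a8, would amount to up to 0.993%, and scaled by all 18 neutrophil markers up to 1.53%, of the levels of Ddit4, Fkbp5, Tsc22d3 and Txnip in any lymphocyte class and library. In monocyte-like cells it would amount to up to 5.90% and 6.73% of them. The part of RNA of platelets and of the other classes was not tested.

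**Figure D4:**
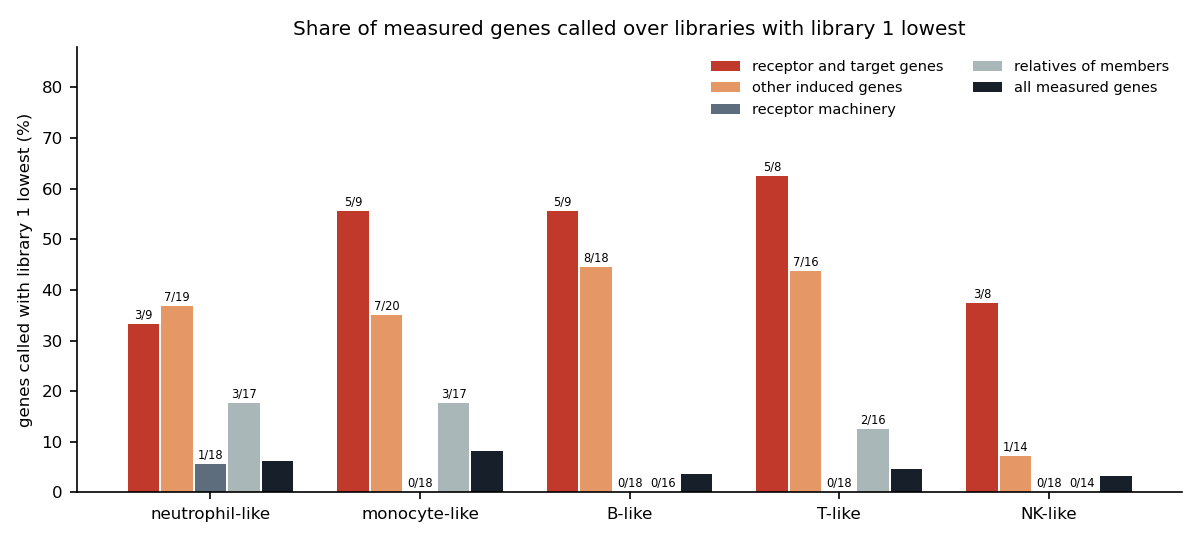
Share of measured genes, in percent (axis from 0), that were called over libraries with library 1 lowest, by class, for the members, the 3 lists and all measured genes. Numbers above the bars are genes called of genes measured, such as 5 of 8 members and 0 of 18 machinery genes in T-like cells.

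Of the other induced genes that were measured, 10 of 18 were called in B-like cells (10.5% of all measured genes), 8 with library 1 lowest (3.66%), and 10 of 16 in T-like cells (13.2%), 7 with library 1 lowest (4.64%). In NK-like cells 1 of 14 was called, Cxcr4 (12.7%). In monocyte-like cells 13 of 20 were called (27.5% of all measured genes), 7 with library 1 lowest (8.11%), and in neutrophil-like cells 17 of 19 (61.7%), 7 with library 1 lowest (6.3%). Cxcr4, the receptor for the retention chemokine of bone marrow, had 66.6, 211 and 161 CPM in B-like cells. In NK-like cells its 3 levels were 22.2, 95.1 and 41.3 CPM. Pik3ip1, an inhibitor of PI3 kinase, had 49.5, 115 and 137 CPM in B-like cells, and T-like levels of 140, 214 and 216 CPM. Some of these genes are ones that neutrophils hold at high level: Dusp1, a phosphatase of MAP kinases, had 1049.8, 1515 and 838 CPM in neutrophil-like cells and 5.28, 19.9 and 9.88 CPM in B-like cells, and the part of neutrophil RNA in the B-like value was not tested. Others on the list went the other way, such as Thbs1, which platelets also carry, at 73.6, 28.5 and 42.4 CPM in B-like cells.

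Of the relatives and partners 2 of 16 were called in B-like cells (10.5% of all measured genes), 4 of 16 in T-like cells (13.2%) and 2 of 14 in NK-like cells (12.7%). Arrdc3, a relative of Txnip, had 18.3, 12.5 and 10.8 CPM in B-like cells, with library 1 highest, the opposite of Txnip in the same cells. Mlxip, the MondoA factor that binds the Txnip element, had 12.7, 19.6 and 16.9 CPM in T-like cells. Tsc22d1, of the family of Tsc22d3, was highest in library 1 in each class, as with 948, 379 and 419.6 CPM for B-like cells, with platelet marker RNA highest in the same library, whose part was not tested. Sesn2 was highest in neutrophil-like cells, at 71.5, 88.5 and 59.6 CPM, where Sesn1 was at its lowest.

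Among 10157 genes with at least 200 UMIs, the 3 whose log2 CPM followed Nr3c1 most closely over the 15 values of class and library were Cir1 (Pearson r 0.97), Rnf44 (0.93) and Wbp2 (0.92). Cir1, a transcriptional corepressor, had 115, 92.0 and 79.0 CPM in neutrophil-like cells, against 52.7, 45.0 and 41.9 CPM in T-like cells. The members followed Nr3c1 less closely, between -0.66 for Ddit4 and 0.48 for Txnip. The genes closest to Tsc22d3 were Gm5533 (0.80), Ankrd37 (0.78) and Csrnp1 (0.78), to Ddit4 Casp8 (0.89), Psmc4 (0.89) and Glb1 (0.88), and to Txnip Supt4a (0.81), E030030I06Rik (0.79) and Ikbkap (0.79). The values of a library share its depth and those of a class share its RNA, so these are descriptions of 15 values that are not independent.

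In GENCODE M21 on GRCm38, Nr3c1 is at chr18:39410545-39519421 (minus strand), Fkbp5 at chr17:28399094-28517527 (minus), Tsc22d3 at chrX:140539528-140600659 (minus), Klf9 at chr19:23141226-23168134 (plus), Sgk1 at chr10:21882184-21999903 (plus), Sesn1 at chr10:41809935-41908424 (plus), Ddit4 at chr10:59949669-59951834 (minus) and Txnip at chr3:96557957-96561883 (plus). Mt2 at chr8:94172664-94173568 and Mt1 at chr8:94179082-94180327 are neighbours on the plus strand. All are protein-coding.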

How the data were processed

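The authors deposited 1 matrix of UMI counts per gene and cell for the whole series. Per the submitters' processing notes, Trimmomatic 0.39, Cell Ranger 4.0.0 and Seurat 3.0 were used with GRCm38, whereas the matrix header names Cell Ranger 6.0.2; how these steps were divided was not stated. Counts were used as deposited. The cell filter asked for 200 genes or more and a mitochondrial share of 10% or less. Scrublet's automatic threshold marked 0.098% of library 1, so the 6% of cells with the highest score in each library were left out instead, a choice made after seeing the data. Cells were clustered with scanpy 1.11.5 (2000 variable genes, 30 components, Leiden resolution 1) without the members and list genes. A cluster was named from at least 3 markers, and 1.43%, 0.214% and 0.386% of cells stayed unnamed. Intervals are exact (Poisson, binomial, conditional binomial). TMM factors came from edgeR 4.0.16. All 10 members are named, and the lists, the rules and the members were chosen with earlier results of these data known. The call rules were checked on simulated counts that held counting error alone. That check does not cover differences between mice, between cells or in the make-up of a class. No p-value was computed, since each group has 1 library and none could be tied to a barcode ending. One result on a gene of the machinery list is not reported here.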

Additional observations from a re-analysis of the deposited data

How the results depend on the processing

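The levels over libraries, the leading classes, the numbers called and the list deviations were computed again under the listed alternatives and 1 chosen after seeing the data, B-like cells without the cluster with platelet genes. Shares of cells were computed again with thinning to 2000 UMIs alone, and comparisons between clusters and the likeness of genes under none. The numbers of members called over libraries stayed within 1.5 times in each class and alternative, but which members were called did not always stay. With TMM scaling Nr3c1 and Txnip lost their neutrophil-like calls, and Ddit4 and Sgk1 gained calls there with library 1 lowest. A stricter cell filter (500 genes or more, mitochondrial share of 5% or less), which left 3.51% of the B-like UMIs of library 1 against 13.2% and 15.8% in libraries 2 and 3, moved the number of members with a called leading class from 5 to 3 and the list's deviation in library 1 in B-like cells from -0.40 to -0.83, and put Sesn1 in B-like cells at 0.892 times the next class in its lowest library. A minimum of 100 UMIs moved the deviation in NK-like cells from -0.27 to -0.56, with fewer genes measured. TMM scaling, which shifted neutrophil-like log2 levels by -0.43, 0.11 and 0.32 in libraries 1, 2 and 3 and other classes by at most 0.05, turned the log2 ratio of library 1 to library 3 for Nr3c1 in neutrophil-like cells to -0.046 from 0.71. Of 27 ratios between libraries of the share of cells with a UMI, 18 stayed within the main interval with thinning to 2000 UMIs. Another 7 moved beyond it and 2 changed order between thinning to 1000 and 2000 UMIs. These 2 were the shares of monocyte-like cells with an Sgk1 or a Sesn1 UMI (log2 ratios of 0.38 and 0.44 at 2000). No order is read from them, and the cause was not tested. Of 453 ratios of levels between libraries, that of Nr3c1 included, 431 stayed within the main interval, 21 moved beyond it and 1 that was called changed direction. The 43 ratios under the minimum of 100 UMIs use the same sums and could not move. A change of direction was counted for called ratios alone. No paired analysis was possible because each group is a single library. Depth limits Mt1 outside monocytes, Ddit4 and Klf9 in neutrophil-like cells and all members in the 80 NK-like cells of library 2.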
